A study of Mus musculus with 8 samples.

Results

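The 37 genes of the mouse mitochondrial genome were taken as all genes in the table whose symbol starts with mt-, after Ensembl identifiers were matched to GENCODE M21 symbols. They were 37 of 37310 genes: 13 protein-coding genes, 2 ribosomal RNA (rRNA) genes and 22 transfer RNA (tRNA) genes, all annotated on chromosome M. RNA of mouse 2-cell embryos, labelled as polyadenylated RNA, was measured in 8 libraries; the labels' protocols describe more than 1 library preparation and do not say which was used. In 4 of them, embryos were cultured from the fertilized egg in G1 medium with 6 µM triclocarban (TCC), an antibacterial compound of personal care products; in the 4 control libraries the same medium held only the solvent DMSO. The sources used here do not give the mouse strain, the number of embryos pooled in a library or the hour of collection. Nor do they state that libraries stem from different cultures, so the spread behind each p-value may be technical.

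The mitochondrial genome is a small circle that is transcribed from both strands into long precursor RNAs. tRNA sequences lie between most of its rRNA and protein-coding genes, and their excision cuts the precursor into separate molecules, to which a poly(A) tail is added. The proteins are core subunits of complexes I, III and IV of the respiratory chain and of ATP synthase (complex V). In the mouse oocyte mitochondria are abundant and maternally inherited, and the embryo relies on them before implantation.

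Most mitochondrial mRNAs end where the next gene begins, so the tail is added at or near the end of the coding sequence. The last 30 bases of the 13 protein-coding genes (GRCm38, mRNA sense) are shown because the poly(A) tail is added at or near most of them. This does not hold for mt-Atp8 and mt-Nd4l, which end inside the next gene of the same mRNA. mt-Nd6 ends inside mt-Nd5, on the opposite strand. mt-Co1 and mt-Nd5 likewise end inside mt-Ts1 and mt-Nd6 of the opposite strand. For mt-Co1, mt-Nd5 and mt-Nd6 the tail need not lie at the bases shown. Capitals mark the stop codon or the part of it that the genome encodes. In 10 genes the stop codon was complete within the annotated gene. The last 2 bases of mt-Nd1 and of mt-Nd2 are shared with the tRNA genes mt-Ti and mt-Tw on the same strand. Where these mRNAs end was not examined. In mt-Co3, mt-Nd4 and mt-Cytb the gene ended in a lone T, which in mammals the poly(A) tail completes to TAA.
mt-Nd1: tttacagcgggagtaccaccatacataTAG
mt-Nd2: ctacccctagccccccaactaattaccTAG
mt-Co1: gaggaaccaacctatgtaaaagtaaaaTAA
mt-Co2: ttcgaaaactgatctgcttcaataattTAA
mt-Atp8: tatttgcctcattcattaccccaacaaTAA
mt-Atp6: gtaagcctatatctacatgataatacaTAA
mt-Co3: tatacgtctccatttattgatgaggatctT
mt-Nd3: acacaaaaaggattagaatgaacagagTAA
mt-Nd4l: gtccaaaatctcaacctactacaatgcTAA
mt-Nd4: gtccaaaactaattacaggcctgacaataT
mt-Nd5: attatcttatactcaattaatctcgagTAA
mt-Nd6: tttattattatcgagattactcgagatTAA
mt-Cytb: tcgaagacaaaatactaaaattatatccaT

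The genes leave little room between each other. mt-Atp8 and mt-Atp6 share 43 bases (chrM:7927-7969, plus strand), mt-Nd4l and mt-Nd4 share 7, and each pair is known to be read from 1 mRNA. mt-Nd5 and mt-Nd6, on opposite strands, share 14 bases at their ends. The shared stretch of the ATP synthase genes is shown because their values cannot be fully separated there.
mt-Atp8 and mt-Atp6 overlap: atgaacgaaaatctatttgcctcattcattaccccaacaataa

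The authors deposited levels as FPKM, in which fragments are divided by transcript length and by the total of mapped fragments in the library. The FPKM of all genes summed to between 477882 and 563651 in the TCC libraries and between 533941 and 605986 in the controls, so levels are also given as a percentage of that sum. The depth is not given. An estimate from the most common low value was 6940000 fragments in TCC library 2 and between 10600000 and 13600000 in the other TCC libraries. In the controls it was 11300000 to 14800000. The estimate is uncertain, as only 5.42 to 7.42% of low values fell near whole fragments (4% by chance). A gene was tested where 4 or more libraries had 1 FPKM or more (12941 genes), with limma on log2(FPKM + 1), Benjamini-Hochberg adjustment over all of them and a threshold of 0.05. Of these genes, 30.8% were lower and 11.3% higher with TCC, 42.1% in either direction, and the median log2 change was -0.19. Of 7 listed 2-cell markers 6 had a row in the table, and these and all 10 oocyte markers reached 1 FPKM. Of 12 cumulus and granulosa markers 5 reached 1 FPKM in some library, with a summed FPKM of 12.9 to 20.4 with TCC and 7.57 to 12.9 in controls, and Amh and Inha were at 0. The summed FPKM of the 10 oocyte markers was 4511 to 5549 with TCC and 1767 to 3734 in controls. The 6 2-cell markers summed to 219.5 to 716.7 with TCC, with the lowest value in TCC library 2, and to 398.6 to 577.3 in controls. Of 7 sperm markers 2 reached 1 FPKM, with a sum of 7.23 to 10.4 with TCC and 1.12 to 5.90 in controls, and of 6 blastocyst markers 5 did, with a sum of 4.99 to 7.77 with TCC and 3.65 to 7.01 in controls. The part of these markers in the mitochondrial results was not tested.

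Mitochondrial mRNA took a smaller part of the library with TCC, and the difference was unequal between the genes. The 13 protein-coding genes made up 8.78, 10.7, 10.7 and 9.70% of the FPKM sum in TCC libraries 1 to 4, against 13.9, 14.3, 17.96 and 19.8% in control libraries 1 to 4. Every TCC library lay below every control. As summed FPKM the means were 53462 ± 5492 with TCC and 94361 ± 22380 in controls (SD, n = 4 each), a ratio of 0.567. The sum is a total over chosen genes and was not tested. FPKM is a share of each library, so fewer mitochondrial transcripts and more of other transcripts cannot be told apart, nor can fewer mitochondria and less RNA in each.

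Of the 37 genes, 36 had more than 1 FPKM in every library and were tested; mt-Ts2 was below the filter. With TCC 11 of the 36 (30.6%) were lower and none was higher, beside 30.8% lower, 11.3% higher and 42.1% changed in either direction among all tested genes. The share of lower genes was that of the background. The count rested on single libraries: it was 17 without TCC library 2, 5 without control 3 or without control 4, 6 without TCC library 1, and 7 without TCC library 3 or without TCC library 4. At an unadjusted p under 0.05 no member was higher either, and no alternative setting of the fit called one higher. By class, 7 of 13 protein-coding genes, 0 of 2 rRNA genes and 4 of 21 tested tRNA genes were lower. For the same 7 protein-coding genes, and for mt-Tr among the tRNAs, all TCC libraries lay below all controls, which held for 30% of all tested genes. The median log2 change was -1.004 for the protein-coding genes, 0.01 for the rRNA genes and -0.52 for the tRNA genes, beside -0.19 for all tested genes.

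**Figure D1:**
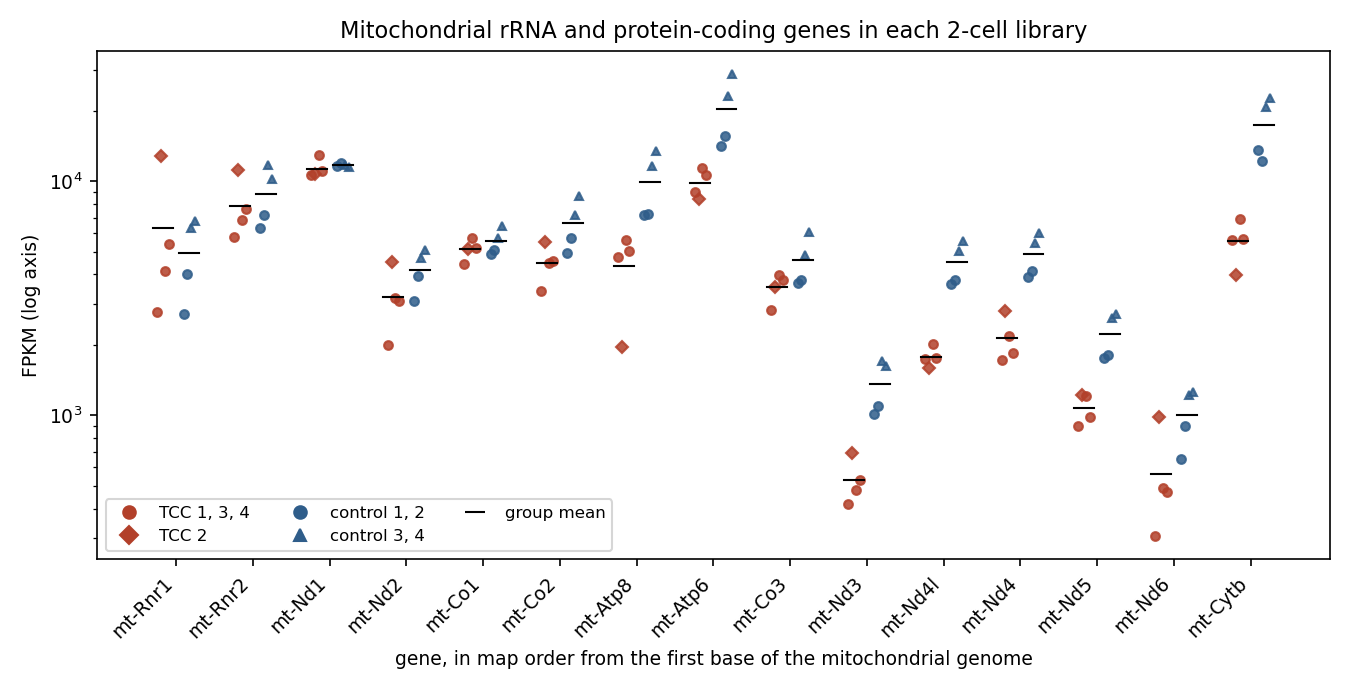
FPKM (log axis) of the 2 rRNA and 13 protein-coding genes in each library, in map order, with TCC left of control at each gene; points are libraries, black lines are group means, and TCC 2 and controls 3 and 4 have their own symbols. The groups lie together at mt-Nd1 and apart at mt-Cytb, and TCC 2 is the highest TCC point at both rRNA genes.

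Complex I is the entry point of electrons from NADH, and 7 of its subunits are encoded in the mitochondrion. mt-Nd1, a membrane arm subunit beside the quinone site, had 10656, 10714, 12963 and 11037 FPKM in TCC libraries 1 to 4, against 11583, 11978, 11739 and 11517 FPKM in controls 1 to 4. The groups overlapped, with a log2 change of -0.05 (SE 0.25, adjusted p = 0.89). mt-Nd1 was the most abundant gene of the table, per length, in TCC libraries 1, 3 and 4, and it ranked 4, 4, 4 and 5 in controls 1 to 4.

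mt-Nd2, another membrane arm subunit, had 1998, 4508, 3184 and 3094 FPKM in the TCC libraries and 3069.8, 3931, 4691 and 5107 FPKM in controls. TCC libraries 2, 3 and 4 lay above control 1, and the log2 change of -0.43 did not pass the threshold (adjusted p = 0.297).

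The complex I genes further along the map, other than mt-Nd6, fell. mt-Nd3, a small subunit whose loop moves with the state of the enzyme, had 417, 689, 482 and 529 FPKM with TCC, against 1017, 1102, 1703 and 1629.6 FPKM in controls (log2 change -1.35, SE 0.28, adjusted p = 0.00265). The highest TCC library was below the lowest control. mt-Nd4l, read from the same mRNA as mt-Nd4, had 1737, 1591, 2009 and 1758 FPKM with TCC and 3640.1, 3784, 5061 and 5569 FPKM in controls (log2 change -1.33, adjusted p = 0.00175). The TCC libraries of mt-Nd4l were close together and well below all controls. mt-Nd4, a proton-pumping subunit, had 1727, 2793, 2193 and 1851 FPKM with TCC and 3920.1, 4155, 5463 and 6037 FPKM in controls (log2 change -1.19, adjusted p = 0.00498). TCC library 2 was the highest TCC library for mt-Nd4 but not for mt-Nd4l: the ratio of mt-Nd4l to mt-Nd4 was 1.01, 0.57, 0.916 and 0.95 in TCC libraries 1 to 4 and 0.929, 0.911, 0.927 and 0.922 in controls 1 to 4.

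mt-Nd5, the most distal pumping subunit, had 901, 1218, 1207 and 988 FPKM with TCC and 1756, 1806, 2613 and 2716 FPKM in controls. It fell by 1.03 on the log2 scale (adjusted p = 0.0091), with no overlap. mt-Nd6, the only protein gene on the minus strand, had 305, 983, 488 and 471 FPKM with TCC and 649, 904, 1219.9 and 1258 FPKM in controls. TCC library 2 lay above controls 1 and 2, and the change of -0.92 missed the threshold (adjusted p = 0.0644). Without that library it was -1.24 and passed (adjusted p = 0.00907). The strand setting of the counting is not given, so reads of mt-Nd6 and of plus-strand precursor over the same bases cannot be told apart.

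Complex III passes electrons to cytochrome c, and mt-Cytb, a heme-bearing core subunit, is its only mitochondrially encoded subunit. It had 5625, 3975, 6909 and 5680.3 FPKM in TCC libraries 1 to 4, against 13634, 12198, 20738 and 22779.6 FPKM in controls 1 to 4. The means were 5547 ± 1204 FPKM with TCC and 17338 ± 5206 FPKM in controls (SD, n = 4 each), and the log2 change of -1.62 (SE 0.31, adjusted p = 0.00166) was the lowest among the 36 tested members. mt-Cytb ranked 8, 12, 5 and 11 among all genes of the table in TCC libraries 1 to 4, and 2, 3, 3 and 3 in controls 1 to 4.

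Complex IV reduces oxygen, and its 3 mitochondrial subunits form its catalytic core. None of them passed the threshold. mt-Co1, the subunit with the oxygen-binding heme, had 4418, 5158, 5741 and 5174 FPKM with TCC and 4908, 5111, 5755 and 6476 FPKM in controls (log2 change -0.12, adjusted p = 0.74). The ranges overlapped. mt-Co2, which takes electrons from cytochrome c, had 3402, 5496, 4469 and 4554 FPKM with TCC and 4935, 5713, 7194 and 8697 FPKM in controls (log2 change -0.55, adjusted p = 0.143). mt-Co3, a structural subunit, had 2816, 3523, 3969 and 3781 FPKM with TCC and 3688, 3790.2, 4829 and 6098 FPKM in controls (log2 change -0.37, adjusted p = 0.306). For mt-Co2 the overlap came from control 1 and for mt-Co3 from controls 1 and 2, and controls 3 and 4 lay above all TCC libraries at both genes.

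The ATP synthase genes both fell. mt-Atp6, the subunit that forms the proton path of the rotor, had 8999.6, 8384, 11354 and 10598 FPKM with TCC and 14128, 15558, 23229.6 and 28786 FPKM in controls (log2 change -1.004, SE 0.31, adjusted p = 0.0213). It was the most abundant gene of the table in all 4 controls. mt-Atp8, a short subunit of the stator, had 4745, 1961, 5604 and 5021 FPKM with TCC and 7150.0, 7271, 11629 and 13530.1 FPKM in controls (log2 change -1.24, SE 0.38, adjusted p = 0.0222). TCC library 2 held the lowest mt-Atp8 value, and without it the change was -0.90 (adjusted p = 0.0336). The ratio of mt-Atp8 to mt-Atp6 was 0.527, 0.234, 0.494 and 0.474 in TCC libraries 1 to 4 and 0.506, 0.467, 0.501 and 0.47 in controls 1 to 4, and TCC library 2 alone lay outside 0.467 to 0.527. Both calls were lost without control 3, without control 4, without both, with no filter and with median-of-ratios scaling (adjusted p from 0.0628 to 0.232), and that of mt-Atp6 also without TCC library 1 and with quantile normalization.

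Seen by complex, the balance among the 13 genes shifted. Complex III held 11.8, 7.80, 11.4 and 10.4% of their summed FPKM in TCC libraries 1 to 4 and 18.4, 15.8, 19.6 and 18.95% in controls 1 to 4, with all TCC libraries lower. Complex IV held 22.3, 27.8, 23.4 and 24.8% with TCC and 18.3, 18.9, 16.8 and 17.7% in controls, with all TCC libraries higher. Complex I, 7 genes of which mt-Nd1 is the most abundant, held 37.2, 44.1, 37.2 and 36.2% with TCC and 34.6, 35.8, 30.7 and 28.1% in controls. Here too the TCC libraries were higher, by a narrow margin over control 2. Complex V held 28.8, 20.3, 28.00 and 28.6% with TCC and 28.7, 29.5, 32.9 and 35.2% in controls, and the groups overlapped. Within complex I the genes went apart: mt-Nd1 held 22.3, 21.01, 21.4 and 20.2% with TCC, against 15.6, 15.5, 11.1 and 9.58% in controls, while mt-Nd4l held 3.64, 3.12, 3.32 and 3.22% with TCC and 4.91, 4.89, 4.78 and 4.63% in controls. These percentages add up to a fixed total, so a lower share of mt-Cytb raises the shares of the others.

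As a share of the whole library, complex I took 3.26, 4.71, 3.997 and 3.51% with TCC and 4.80, 5.10, 5.51 and 5.58% in controls. Complex III took 1.03, 0.832, 1.23 and 1.01% with TCC and 2.55, 2.25, 3.52 and 3.76% in controls. Complex IV took 1.95, 2.97, 2.52 and 2.40% with TCC and 2.53, 2.70, 3.02 and 3.51% in controls. Complex V took 2.53, 2.16, 3.01 and 2.78% with TCC and 3.99, 4.21, 5.91 and 6.98% in controls. On this scale complexes I, III and V did not overlap between the groups, and complex IV did. With the rRNA genes left out of the sum complex I overlapped too, at 4.96% in TCC library 2 and 4.88% in control 1.

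**Figure D2:**
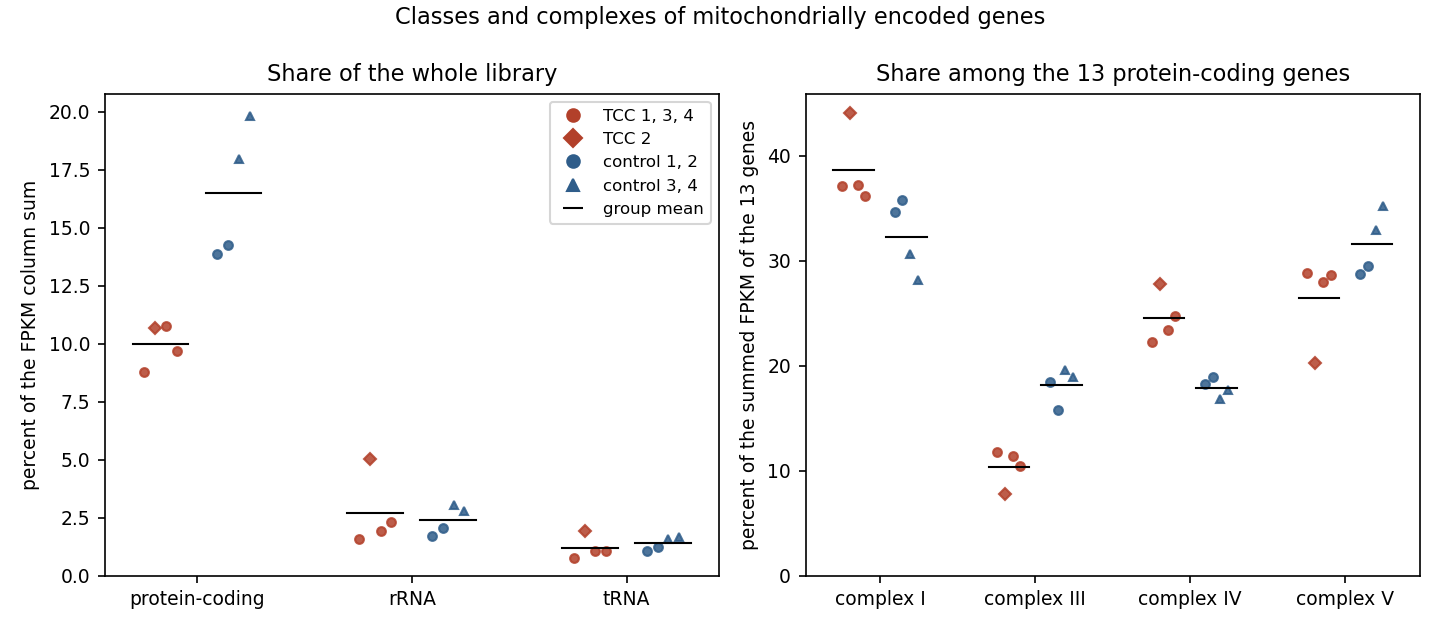
Left, percentage of each library's FPKM sum held by the protein-coding, rRNA and tRNA genes; right, percentage of the summed FPKM of the 13 protein-coding genes held by each complex; TCC is left of control, points are libraries and black lines group means. Protein-coding shares run from 8.78 to 10.7% with TCC and from 13.9 to 19.8% in controls, and TCC 2 has 5.02% rRNA.

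The change followed the order of the genes on the mitochondrial map. In the stretch from mt-Tf to mt-Co1, 0 of 16 genes passed the threshold and log2 changes ran from -0.69 to 0.20. From mt-Ts1 to mt-Co3, 3 of 7 genes were lower. From mt-Tg to mt-Tp, 8 of 13 tested genes were lower and all changes lay between -1.62 and -0.76. Among all tested genes 30.8% were lower. The borders of these stretches were drawn after the values were seen, so the counts are a description. Across the 36 tested genes, Spearman's rho between map order and log2 change was -0.80. It was -0.69 over the 13 protein-coding genes and -0.79 over the 21 tested tRNA genes. The genes share the same libraries, lie on common precursor RNAs and partly overlap, so they are no independent points. Over the 13 protein-coding genes rho was 0.32 with gene length and 0.21 with GC content.

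The order held in TCC libraries 1, 3 and 4, each set against the mean of the controls, with rho of -0.82, -0.80 and -0.84 over the 13 protein-coding genes. It was weaker in TCC library 2, at -0.41. Over the 21 tested tRNA genes rho was -0.62, -0.78 and -0.81 in TCC libraries 1, 3 and 4, and -0.21 in TCC library 2. All these values use the same 4 controls, so they are not independent. The controls also differed among themselves. The log2 difference of controls 3 and 4 minus controls 1 and 2 was 0.75 at mt-Cytb, 0.80 at mt-Atp6 and -0.02 at mt-Nd1. At mt-Rnr1 it was 0.99 and at mt-Rnr2 0.70. Over the 13 protein-coding genes this difference between controls had a rho of 0.51 with map order, and over the 21 tRNA genes of -0.36. Taken the other way, as controls 1 and 2 minus controls 3 and 4, rho over the protein-coding genes had the same sign as for the TCC change. Over the tRNA genes rho had the opposite sign. The size of the TCC change therefore depended on which controls were used. mt-Cytb was at -1.24 against controls 1 and 2 and at -1.997 against controls 3 and 4, and mt-Nd1 at -0.06 and -0.04.

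**Figure D3:**
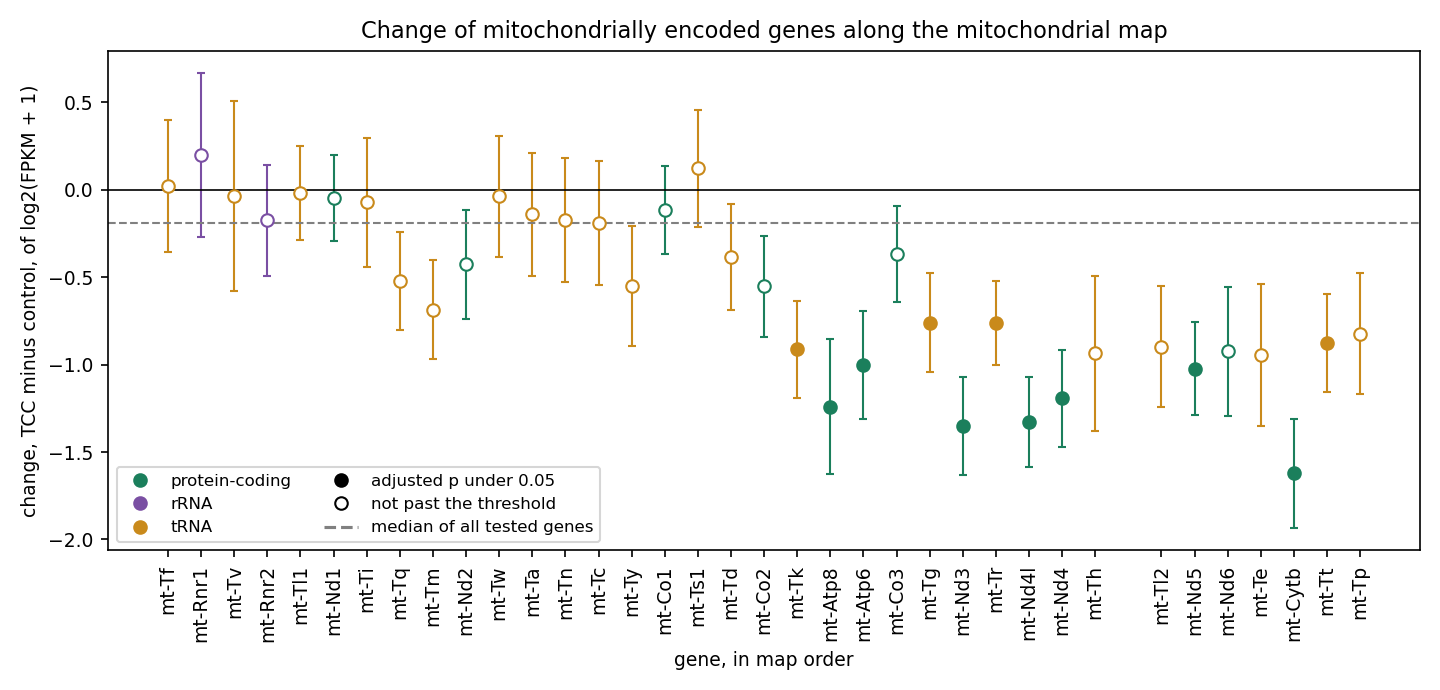
Change of log2(FPKM + 1), TCC minus control, with its standard error for the 36 tested genes in map order; filled points passed the adjusted p threshold and the dashed line is the median of all tested genes, -0.19. Filled points begin at mt-Tk, and the lowest is mt-Cytb at -1.62.

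A ratio to mt-Nd1 of the same library removes the scaling of the library. The ratio of mt-Cytb to mt-Nd1 was 0.528, 0.371, 0.533 and 0.515 in TCC libraries 1 to 4, against 1.18, 1.02, 1.77 and 1.98 in controls 1 to 4. All TCC libraries were below all controls. For mt-Nd4l it was 0.163, 0.149, 0.155 and 0.159 with TCC and 0.314, 0.316, 0.431 and 0.484 in controls. For mt-Co1 it was 0.415, 0.481, 0.443 and 0.469 with TCC and 0.424, 0.427, 0.49 and 0.562 in controls, with overlap. Among the 13 protein-coding genes, the 7 that did not overlap in this ratio were the 7 past the threshold in FPKM: mt-Atp8, mt-Atp6, mt-Nd3, mt-Nd4l, mt-Nd4, mt-Nd5 and mt-Cytb. mt-Nd1 was chosen as the divisor after its values were seen. It differed little between the groups in FPKM, so much of this match was fixed beforehand. As a share of the summed FPKM of the 13 genes, mt-Nd3, mt-Nd4l and mt-Cytb had all TCC libraries lower. On that scale mt-Atp8, mt-Atp6, mt-Nd4 and mt-Nd5 overlapped, and mt-Nd1, mt-Co1 and mt-Co3 had all TCC libraries higher.

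**Figure D4:**
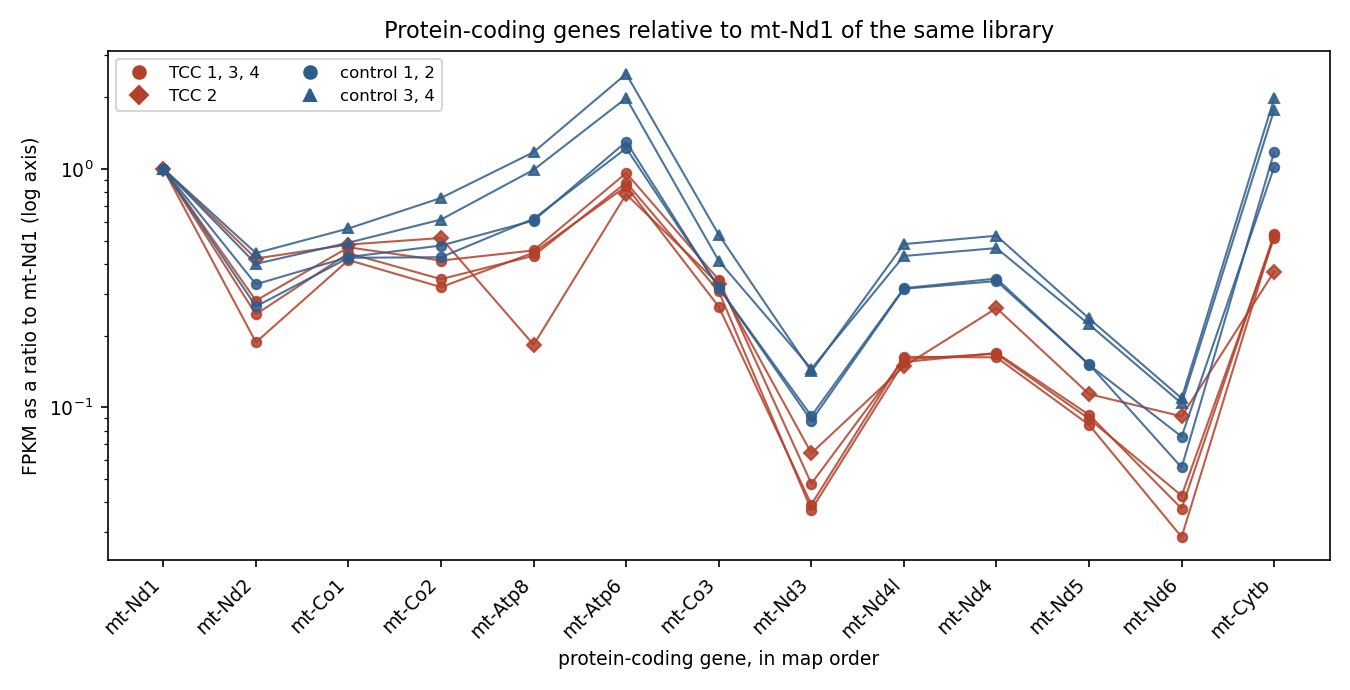
FPKM of the 13 protein-coding genes as a ratio to mt-Nd1 of the same library (log axis), in map order; each line is a library, TCC in red and control in blue. TCC and control lines mix at mt-Nd2, mt-Co1, mt-Co2 and mt-Co3 and lie apart at mt-Atp8 and mt-Atp6, and from mt-Nd3 on the TCC lines lie lower except TCC 2 at mt-Nd6; at mt-Cytb they end between 0.371 and 0.533 for TCC and between 1.02 and 1.98 for control.

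The rRNA genes encode the RNA of the small (mt-Rnr1, 12S) and large (mt-Rnr2, 16S) subunits of the mitochondrial ribosome. mt-Rnr1 had 2764, 12876, 4143 and 5379.6 FPKM in TCC libraries 1 to 4, against 2703, 4004, 6297 and 6772 FPKM in controls 1 to 4 (log2 change 0.20, SE 0.47, adjusted p = 0.77). mt-Rnr2 had 5793, 11128, 6809 and 7645 FPKM with TCC and 6322, 7208, 11709.5 and 10243 FPKM in controls (log2 change -0.18, SE 0.32, adjusted p = 0.688). The groups overlapped for both genes, and TCC library 2 was the highest of the TCC libraries. In that library mt-Rnr1 was the most abundant gene of the table, and its ratio to mt-Rnr2 was 1.16, against 0.477 to 0.704 in the other TCC libraries and 0.428 to 0.661 in controls. Without TCC library 2 the change of mt-Rnr1 was -0.23 and that of mt-Rnr2 was -0.36, and neither passed the threshold. Against the 13 protein-coding genes, the summed FPKM of both rRNA genes came to 17.9, 47.1, 18.1 and 23.9% with TCC and 12.2, 14.5, 17.01 and 14.2% in controls, with all TCC libraries higher. Outside TCC library 2 the gap was narrow, with 17.9% as the lowest TCC value and 17.01% as the highest control.

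The 22 tRNA genes encode the adaptors of mitochondrial translation. They are shorter than the reads of 150 bases, so a fragment as long as a read reaches beyond the gene into its neighbours. FPKM at a tRNA gene therefore stands largely for precursor or adjoining RNA, and mature tRNA was not measured separately. Together they took 0.779, 1.91, 1.05 and 1.05% of the FPKM sum with TCC and 1.05, 1.24, 1.60 and 1.67% in controls, with overlap. Without TCC library 2 the remaining TCC libraries were 0.779 to 1.05%, against 1.05 to 1.67% in controls. The groups still overlapped, as TCC libraries 3 (1.0505%) and 4 (1.0492%) lay just above control 1 (1.0475%). Lower with TCC were mt-Tk (log2 change -0.91, adjusted p = 0.0206), mt-Tr (-0.76, adjusted p = 0.0242), mt-Tt (-0.88, adjusted p = 0.0259) and mt-Tg (-0.76, adjusted p = 0.0484), the tRNA genes for lysine, arginine, threonine and glycine. mt-Tr had 59.2, 77.99, 63.9 and 51.3 FPKM with TCC and 88.5, 102, 115 and 124 FPKM in controls, without overlap. mt-Tk had 115, 198, 114 and 108 FPKM with TCC and 193, 223, 277 and 299 FPKM in controls, where TCC library 2 lay just above the lowest control. mt-Tt, beside mt-Cytb on the map, had 433, 765, 457 and 439.7 FPKM with TCC and 740.0, 838, 1099 and 1108 FPKM in controls. mt-Tg had 47.1, 67.1, 37.9 and 30.3 FPKM with TCC and 62.3, 72.7, 78.6 and 87.3 FPKM in controls, and its call was lost in 14 of 23 alternatives. Without any single one of TCC libraries 1, 3 and 4 and controls 3 and 4, 0 tRNA genes passed the threshold. Without TCC library 2, 9 did, and without control 1, 8 did.

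The other 17 tested tRNA genes ran from -0.95 for mt-Te, the glutamate tRNA, to 0.12 for mt-Ts1, 1 of 2 serine tRNAs. mt-Te had 45.9, 174, 69.1 and 79.03 FPKM with TCC and 98.04, 140.5, 206 and 219 FPKM in controls (adjusted p = 0.0815). mt-Tl1, which lies between mt-Rnr2 and mt-Nd1 and was the most abundant tRNA gene by mean FPKM, had 1030.3, 1433, 1616 and 1436 FPKM with TCC and 1104, 1171, 1602 and 1746 FPKM in controls (log2 change -0.02, adjusted p = 0.964). mt-Tv, between the rRNA genes, had 148, 1054, 233 and 243 FPKM with TCC and 172, 303, 422 and 447 FPKM in controls (log2 change -0.04, adjusted p = 0.964), with TCC library 2 far above the others. mt-Tm, the methionine tRNA, had 551, 712, 749 and 862 FPKM with TCC and 831, 969, 1461 and 1452 FPKM in controls (log2 change -0.69, adjusted p = 0.0705). mt-Tf, the phenylalanine tRNA at the start of the map, had 95.3, 80.4, 153 and 144 FPKM with TCC and 71.2, 72.6, 172 and 179 FPKM in controls (log2 change 0.02, adjusted p = 0.97).

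Between mt-Nd2 and mt-Co1 lie 5 tRNA genes, for tryptophan (mt-Tw), alanine (mt-Ta), asparagine (mt-Tn), cysteine (mt-Tc) and tyrosine (mt-Ty), of which all but mt-Tw are on the minus strand. The gap of 32 bases between mt-Tn and mt-Tc is where light-strand DNA replication is known to start. mt-Tw had 239, 528, 339 and 359 FPKM with TCC and 234, 293, 428 and 584 FPKM in controls. mt-Ty, the least abundant of the 5, had 43.6, 116, 62.1 and 72.3 FPKM with TCC and 65.4, 95.3, 121 and 141 FPKM in controls. The log2 changes were -0.04 for mt-Tw, -0.14 for mt-Ta, -0.17 for mt-Tn, -0.19 for mt-Tc and -0.55 for mt-Ty, and none passed the threshold. TCC library 2 was the highest TCC library at each of them. The group that precedes mt-Nd2 holds mt-Ti (isoleucine, log2 change -0.07), mt-Tq (glutamine, -0.52) and mt-Tm. mt-Td, the aspartate tRNA before mt-Co2, had a change of -0.39, and mt-Tp, the proline tRNA that closes the map, had 105, 267, 147 and 123 FPKM with TCC and 186, 216, 365 and 340.2 FPKM in controls (log2 change -0.82, adjusted p = 0.076). None of these passed the threshold over all 8 libraries. The 8 tRNA genes of the minus strand had a median change of -0.36 and none passed the threshold, and the 13 tested ones of the plus strand had a median of -0.69.

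**Figure D5:**
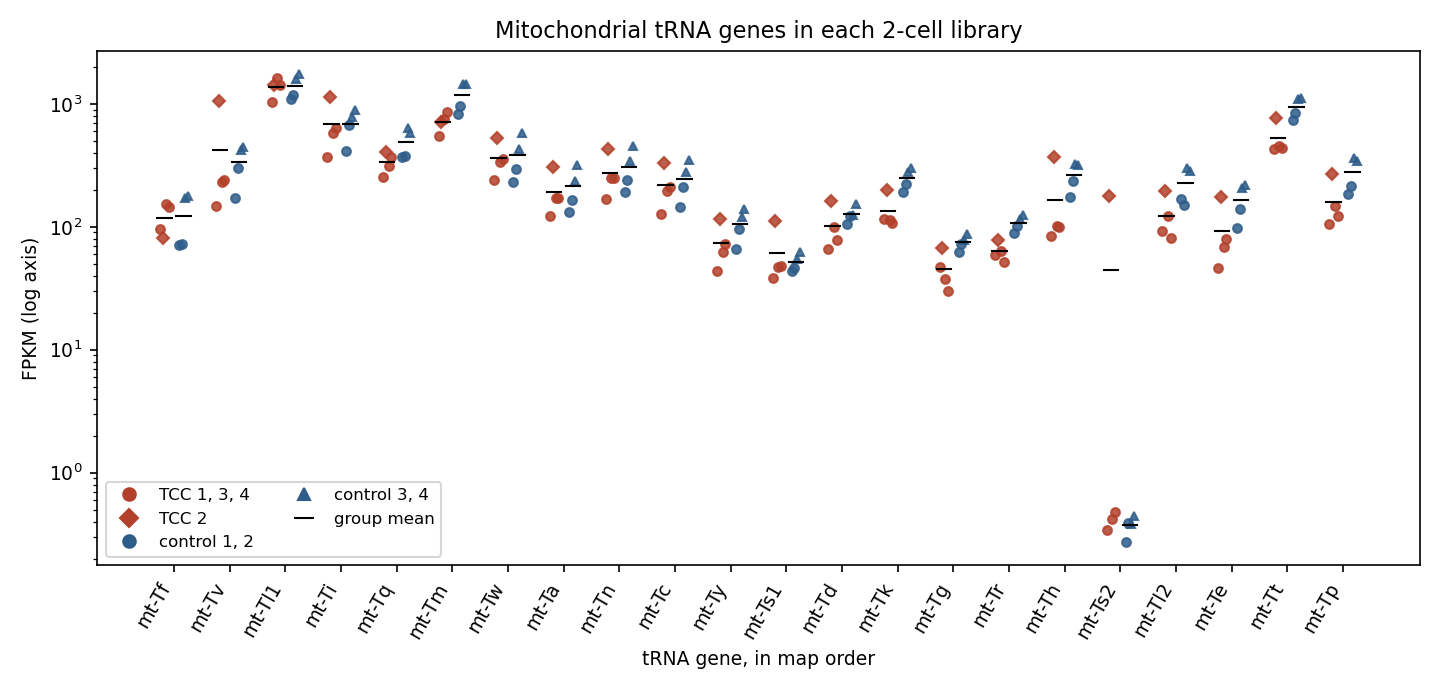
FPKM (log axis) of the 22 tRNA genes in each library, in map order, with TCC left of control; points are libraries and black lines group means. At mt-Ts2 TCC 2 stands at 177 FPKM and the other 7 libraries between 0.275 and 0.482.

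Between mt-Nd4 and mt-Nd5 lie 3 tRNA genes in a row, for histidine (mt-Th), serine (mt-Ts2) and leucine (mt-Tl2), with no base between mt-Th and mt-Ts2 and 1 base shared by mt-Ts2 and mt-Tl2. Their sequences (GRCm38, chrM:11546-11612, chrM:11613-11671 and chrM:11671-11741, plus strand) are shown because the middle one was nearly absent from all libraries but one; capitals mark the anticodon.
mt-Th: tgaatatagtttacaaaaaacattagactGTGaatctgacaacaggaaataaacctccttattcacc
mt-Ts2: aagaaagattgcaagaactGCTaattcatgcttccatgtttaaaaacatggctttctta
mt-Tl2: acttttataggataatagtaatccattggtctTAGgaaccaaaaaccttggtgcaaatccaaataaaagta

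At 59 bases mt-Ts2 is the shortest of the 37 genes; the tRNA it encodes is known to lack an arm of the usual cloverleaf. mt-Ts2 had 0.339, 177, 0.422 and 0.482 FPKM in TCC libraries 1 to 4 and 0.275, 0.393, 0.382 and 0.441 FPKM in controls 1 to 4. It was below the filter and was not tested. Its neighbour mt-Th had 83.7, 371, 102 and 99.2 FPKM with TCC and 176, 236, 324 and 319 FPKM in controls (log2 change -0.94, adjusted p = 0.111), and mt-Tl2 had 92.4, 194, 122 and 80.6 FPKM with TCC and 168, 149.6, 302 and 285 FPKM in controls (log2 change -0.90, adjusted p = 0.0559). Without TCC library 2, which also had the lowest estimated depth, mt-Th was at -1.43 (adjusted p = 0.00244) and mt-Tl2 at -1.15 (adjusted p = 0.0139).

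Parts of the mitochondrial genome have near-identical copies in the nuclear genome, and how reads that match several places were treated is not given. An alignment of the 37 genes with all GENCODE M21 transcripts found 21 nuclear genes with at least 100 aligned bases at 80% identity or more. Of these, 7 were at least 99% identical, to mt-Co1, mt-Co2, mt-Atp6, mt-Co3, mt-Nd3, mt-Nd4l and mt-Nd4, and lie together within 4663 bases of chromosome 1 (chr1:24611535-24616197, GRCm38). Only the copy of mt-Nd4l among them, Gm10222 (chr1:24612407-24612700, minus strand, GRCm38), had a row in the table under its M21 identifier. The gene mt-Nd4l (chrM:9877-10173, plus strand) is shown in full because 294 of its 297 bases align to Gm10222 without a mismatch; capitals mark the bases shared with mt-Nd4.
mt-Nd4l: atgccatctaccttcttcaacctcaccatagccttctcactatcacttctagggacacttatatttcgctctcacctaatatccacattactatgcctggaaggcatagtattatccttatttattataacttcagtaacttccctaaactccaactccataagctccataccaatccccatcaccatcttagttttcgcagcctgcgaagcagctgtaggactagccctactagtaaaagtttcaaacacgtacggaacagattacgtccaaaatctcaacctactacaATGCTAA

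Gm10222 had 1822, 1755, 2107 and 1845 FPKM in TCC libraries 1 to 4 and 3765, 3953, 5258 and 5788 FPKM in controls 1 to 4, which is 1.03 to 1.10 times the value of mt-Nd4l in the same library. Its log2 change was -1.30 (adjusted p = 0.00199). Reads shared by the 2 loci cannot be assigned from these values, so the levels of mt-Nd4l and of the other 6 genes with such a copy are uncertain. Only annotated transcripts were searched, and a tRNA gene is shorter than the 100 bases required. mt-Ts1, mt-Td, mt-Tk, mt-Atp8, mt-Tg and mt-Tr lie between these 7 genes on the map. Unannotated copies of them were not searched for, so their levels may be uncertain too. Among the protein-coding genes, 4 of the 7 with an annotated copy were lower, with changes from -1.35 to -0.12. Of the 6 others 3 were lower, from -1.62 (mt-Cytb) to -0.05 (mt-Nd1), beside 30.8% of all tested genes. The part of these copies in the changes was not tested.

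Nuclear genes whose proteins maintain mitochondrial DNA or make, process, modify, tail or degrade mitochondrial RNA went both ways. Of 60 listed genes, 56 were tested: 21 (37.5%) fell, 6 (10.7%) rose and 29 showed no call, beside 30.8% lower and 11.3% higher among all tested genes. With quantile normalization 19 were lower and 12 higher. Among 14 tested genes of transcription and DNA maintenance, 6 were lower and 2, Mterf4 and Tfb1m, higher. Polg2, the accessory subunit of the mitochondrial DNA polymerase, had 1.17, 0.433, 0.494 and 0.591 FPKM in TCC libraries 1 to 4 and 4.99, 6.45, 5.48 and 10.2 FPKM in controls 1 to 4 (log2 change -2.19, adjusted p = 0.000137). Ssbp1, which binds single-stranded mitochondrial DNA, averaged 13.1 ± 1.87 FPKM with TCC and 75.9 ± 33.5 FPKM in controls (SD, n = 4 each; log2 change -2.35, adjusted p = 0.000205). Mrpl12, a ribosomal protein also known to bind the mitochondrial RNA polymerase in human cells, averaged 7.90 ± 1.62 FPKM with TCC and 38.3 ± 15.4 FPKM in controls (log2 change -2.08). The polymerase gene Polrmt had 3.86, 1.38, 3.85 and 3.78 FPKM with TCC and 3.81, 3.55, 11.1 and 9.65 FPKM in controls, with overlap (log2 change -0.85, adjusted p = 0.103). Tfam, which packs mitochondrial DNA and starts transcription, had 3.18, 2.80, 3.98 and 3.07 FPKM with TCC and 5.36, 5.29, 3.88 and 4.87 FPKM in controls (log2 change -0.46, adjusted p = 0.134).

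Among 16 tested genes of precursor and tRNA processing, 6 (37.5%) were lower and 2 (12.5%), Trit1 and Ptcd2, higher, near the 30.8% and 11.3% of all tested genes; the lists that follow are small and stand beside the same background. The lower ones included 3 genes of tRNA modification: Qtrt1 (2.44 ± 0.801 FPKM with TCC and 18.2 ± 2.72 FPKM in controls, log2 change -2.49), Pus1 (0.763 ± 0.326 FPKM with TCC and 10.3 ± 3.25 FPKM in controls, -2.65) and Gtpbp3 (0.494 ± 0.241 FPKM with TCC and 7.92 ± 2.96 FPKM in controls, -2.54). The 13 genes of mRNA stability and polyadenylation had 3 lower and 2 higher. The higher ones were Lrpprc and Mtpap. Lrpprc, which binds and stabilizes mitochondrial mRNA, had 4.08, 5.73, 3.88 and 3.39 FPKM with TCC and 1.87, 2.19, 1.28 and 1.08 FPKM in controls (log2 change 1.02, adjusted p = 0.00648), with all TCC libraries higher; the call was lost without controls 3 and 4 (adjusted p = 0.0515). Tbrg4, a FASTK family protein, averaged 3.84 ± 0.553 FPKM with TCC and 17.3 ± 2.85 FPKM in controls (log2 change -1.92), and Taco1, a translational activator of mt-Co1, 0.929 ± 0.432 FPKM with TCC and 5.70 ± 1.47 FPKM in controls (-1.79). Of 5 decay genes, Endog, a nuclease (-1.54), and Pde12, which removes poly(A) tails (-1.08), were lower, and the other 3 had no call. The call of Pde12 was lost with median-of-ratios scaling (adjusted p = 0.0587), with quantile normalization (0.0916) and without controls 3 and 4 (0.0685). Of 8 tested genes listed for rRNA modification 4 were lower. Trub2, a pseudouridine synthase, averaged 1.15 ± 0.333 FPKM with TCC and 19.4 ± 7.45 FPKM in controls (log2 change -3.18). Rpusd3 (-2.04) and Mrm1 (-1.29) were also among the lower ones. Which RNA each listed enzyme modifies was not examined, so the list may hold enzymes that act on other RNAs.

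Nuclear subunits of the same complexes went both ways. Of 36 tested complex I subunits 13 were lower and 9 higher; of 9 in complex III, 4 and 2; of 15 in complex IV, 6 and 1; and of 16 in complex V, including its inhibitor, 6 and 2. Over the 4 lists that is 29 of 76 lower (38.2%) and 14 higher (18.4%), beside 30.8% and 11.3% of all tested genes. Ndufa8, a complex I subunit, averaged 30.5 ± 11.04 FPKM with TCC and 3.76 ± 1.21 FPKM in controls (SD, n = 4 each; log2 change 2.69, adjusted p = 0.000133). Uqcrfs1, the iron-sulfur protein of complex III, averaged 8.65 ± 1.66 FPKM with TCC and 51.2 ± 5.97 FPKM in controls (log2 change -2.45). Cox4i1, of complex IV, averaged 40.1 ± 2.89 FPKM with TCC and 169 ± 62.96 FPKM in controls (log2 change -1.97), and the ATP synthase inhibitor Atpif1 31.4 ± 4.24 FPKM with TCC and 92.7 ± 14.3 FPKM in controls (log2 change -1.53). No mitochondrially encoded subunit of these complexes was higher, beside 14 of 76 tested nuclear ones. Whether the 2 sets differ was not tested.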

How the data were processed

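The authors deposited FPKM for 37310 genes in 8 libraries. The submitters' processing notes list STAR, StringTie, featureCounts, DESeq2 1.30.1 and mm10 without saying what each did. The maker of the FPKM, the gene annotation, strand handling and the assignment of multiply matching reads were not found in the sources used here. Per the labels' protocols, paired reads of 150 bases followed 16 to 18 cycles of cDNA preamplification, with no molecular identifiers named; another preparation from total RNA is also described there, and which one applies is not said. Columns were assigned by the sample descriptions, and identifiers without version were matched to GENCODE M21 (GRCm38, the assembly of mm10), 32620 of them (87.4%). Counts could not be recovered: between 5.42 and 7.42% of low values fell within 0.02 of whole fragments (4% by chance). The estimated depth is bounded by its search window of 3000000 to 30000000 fragments.

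limma 3.58.1 (R 4.3.3, lmFit and eBayes with trend, treatment as the only term, 6 residual degrees of freedom) was fitted to log2(FPKM + 1) and tested on simulated data. Fold changes are on that scale. Sums were described, not tested. Sequences came from GENCODE M21 transcripts and nuclear copies from blastn 2.17.0. Python 3.11.15, pandas 2.3.3, numpy 2.4.6, scipy 1.17.1 and matplotlib 3.10.9 made tables and figures.

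Alternatives were pseudocounts of 0.1 and 5, no filter, a mean of at least 5 FPKM, other scalings, a replicate block, weights per library, eBayes variants and leaving out libraries. Column-sum scaling without TCC library 2 was added after seeing that library. The members, lists, tests and alternatives were chosen with earlier results of these data known. All members are named, and Tfam, Polrmt and Lrpprc. By smallest adjusted p, up to 3 genes of each nuclear list of DNA maintenance or RNA handling and 1 of each subunit list are named. Mterf4, Tfb1m, Trit1, Ptcd2 and Mtpap were named after their values were seen. Libraries with the same number were not known to share a culture, so no pairing was assumed.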

Additional observations from a re-analysis of the deposited data

Results flagged for a closer look

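Within groups of 4 libraries, the highest library stood far from the nearest other, by Dixon's test at the 95% level, in 7 of 98 groups checked; chance gives about 1 in 20. TCC library 2 was the high library in 6 of them, all tRNA genes. mt-Ts2 had 177 FPKM there, against 0.339 to 0.482 FPKM in the remaining TCC libraries. mt-Th had 371 FPKM (83.7 to 102 in the remaining TCC libraries), mt-Tt 765 FPKM (433 to 457), mt-Tk 198 FPKM (108 to 115), mt-Tv 1054 FPKM (148 to 243) and mt-Ts1 112 FPKM (38.1 to 48.2). The last was mt-Nd1 in TCC library 3, at 12963 FPKM, where the other TCC libraries had 10656 to 11037 FPKM. TCC library 2 also had the lowest estimated depth, 6940000 fragments, and the lowest FPKM sum, 477882. That depth is uncertain: it rests on a value shared by 42 genes, and 5.42% of low values there fell near whole fragments (4% by chance).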

How the results depend on the processing

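The falls of mt-Cytb, mt-Nd3, mt-Nd4l and mt-Nd4 passed the threshold in all 23 alternatives tried, and that of mt-Nd5 in 21. No mitochondrially encoded gene was called higher in any. The number of lower members, 11, was 7 with no filter, 4 with median-of-ratios scaling, 4 without controls 3 and 4, 18 without controls 1 and 2, and 18 with scaling by the column sum without TCC library 2. The number of lower protein-coding genes, 7, was 4 with median-of-ratios scaling and 4 without controls 3 and 4. The number of lower tRNA genes, 4, was 2 with no filter, 0 with median-of-ratios scaling, 8 with library weights (a fit that stopped short of its convergence tolerance), 9 without controls 1 and 2, 0 without controls 3 and 4, and 10 with the column sum without TCC library 2. Median-of-ratios scaling moved the median change of all genes to 0.06 and left 13 of 36 members above 0, 2 of them protein-coding; quantile normalization moved it to 0.13 and left 5 above 0. Leaving out single libraries gave 5 to 17 lower members (17 without TCC 2, 5 without control 3 or control 4), 5 to 8 protein-coding and 0 to 9 tRNA; the rRNA counts were 0 in all alternatives. Without single libraries, log2 ratios of the summed levels (TCC over control) ran from -0.92 to -0.68 for protein-coding genes, -0.35 to 0.21 for rRNA, -0.57 to -0.19 for tRNA, -0.60 to -0.47 for complex I, -1.78 to -1.49 for complex III, -0.45 to -0.22 for complex IV and -1.24 to -0.89 for complex V. Without controls 3 and 4 they were -0.50 for protein-coding genes, -1.22 for complex III, -0.10 for complex IV and -0.64 for complex V.

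Among all tested genes, 1466 were higher and 3981 lower, so 26.9% of the changed genes were higher. Median-of-ratios scaling gave 2637 higher genes beside 3187 lower ones (45.3% higher), and quantile normalization 2803 beside 2947 (48.7%). The higher count was 2838 without controls 1 and 2, 695 without controls 3 and 4, and 953 to 1860 without single libraries (971 without control 3, 953 without control 4); the lower count was 2487 at a mean of at least 5 FPKM, where fewer genes were tested. Among the nuclear genes of mitochondrial DNA maintenance and RNA handling, 6 were higher and 21 lower. Their higher count was 11 with median-of-ratios scaling, 12 with quantile normalization and 11 with library weights. It was 11 without controls 1 and 2 and 4 to 9 without single libraries. Their lower count was 13 at a mean of at least 5 FPKM. The causes were not tested. The replicate block called 1544 genes higher and 4061 lower, lost mt-Tg and gained mt-Nd6 and Polrmt among the genes named. Same-numbered libraries correlated in their deviations at 0.34, 0.05, 0.09 and 0.10. TCC libraries 1, 3 and 4 correlated best with the control of the same number, and TCC library 2 with control 4 (0.08). Libraries with the same number were not known to share a culture, so the numbers were not taken as pairs. Depth is only estimated. mt-Ts2 had under 1 FPKM in 7 libraries and 177 FPKM in TCC library 2, which had the lowest estimated depth. The part of depth in this was not tested.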

Other observations

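A second set of nuclear copies lies together on chromosome 2 and had its own rows in the table. Gm13340, 97.6% identical to mt-Co1 over 1545 bases (chr2:22588103-22589647, minus strand, GRCm38), had 53.1, 68.2, 57.03 and 56.1 FPKM in TCC libraries 1 to 4 and 44.3, 46.2, 55.2 and 62.1 FPKM in controls 1 to 4 (log2 change 0.18, limma adjusted p = 0.573). Gm13341, 95.9% identical to mt-Co2 over 684 bases, had 108, 139.7, 128 and 131 FPKM with TCC and 132, 138, 193 and 235 FPKM in controls (-0.43, adjusted p = 0.212). Gm13339, 96.7% identical to mt-Nd2 over 510 bases, had 18.99, 48.2, 26.00 and 26.03 FPKM with TCC and 22.1, 26.9, 30.9 and 36.7 FPKM in controls (-0.03, adjusted p = 0.952). None of these changes passed the threshold, and TCC library 2 was the highest TCC library at each of them, as it was at mt-Nd2 and mt-Co2 but not at mt-Co1.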
